A study of Mus musculus with 75 samples.

Results

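The comparison concerns resting mouse embryonic fibroblasts without RelA against the same cells with wild-type RelA. All cells were p53-/-crel-/-rela-/- fibroblasts of C57BL/6 embryos that carried a pBABE-puro retroviral vector. The vector was empty in the EV cells and encoded RelA in the RelA-WT cells. Both had been kept overnight in low serum (0.5%) and were taken at 0 h, before any tumour necrosis factor (TNF) was added. EV and RelA-WT libraries at 0.5 h of TNF are not members and are read only beside the values at rest. The members are the EV and RelA-WT libraries at 0 h of each of the 2 deposited sets, 4 of the 75 libraries of the series, so that each EV library has a RelA-WT partner in its own set. The labels call the cells primary and do not say whether the lines are pools or clones. Nor do they say whether the sets are separate infections or cultures. The p-values measure the spread between libraries of the same construct and time, which may be technical. That spread was estimated over the 40 libraries of the 4 replicated constructs, cells given TNF among them, and not from the members alone. RelA was expressed from the vector and not from its own locus. The mutant constructs labelled RelA-dTAD and RelA-dTA1, which the labels do not describe further, and 7 other RelA constructs are used here only where they bear on the same genes at rest.

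RelA (p65) is the NF-kB subunit that carries strong transactivation domains. In resting cells it is held in the cytoplasm by inhibitors of the IkB family, and TNF releases it to bind κB sites at inflammatory genes. A fraction of it shuttles through the nucleus without a stimulus, so resting cells can differ in expression with and without it. Fibroblasts also keep a low resting output of interferon-stimulated genes, which depends on transcription factors, those of the IRF family among them, that bind interferon-stimulated response elements (ISRE).

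The EV libraries held 6847613 counted reads in set 1 and 11950062 in set 2, and the RelA-WT libraries 5970069 and 12220514. In pairs of values below, set 1 comes before set 2. Levels are CPM, read counts divided by the library total after TMM scaling, and differences are log2 fold changes ± SE of EV over RelA-WT. In a principal component analysis of the 4 libraries the first component (56.0% of the variance) separated the sets and the second (31.6%) separated EV from RelA-WT, so the comparison was made within sets. The ribosomal RNA entry Gm42418 took 0.00133% and 0.923% of the reads in EV, and 0.00702% and 1.53% in RelA-WT. Mitochondrial genes took 1.43% and 1.18% in EV, and 1.09% and 0.915% in RelA-WT. All 14 fibroblast markers were detected, with summed levels of 40760 and 38390 CPM in EV against 40070 and 33930 CPM in RelA-WT, and none was called. Summed macrophage markers stood at 6.26 and 5.31 CPM in EV against 6.21 and 3.76 CPM in RelA-WT, with Adgre1, Itgam and Fcgr1 at 0 reads.

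The gene that was put back served as the check of the labels. Rela (chr19:5637483-5648130, plus strand) had 16.5 and 15.4 CPM in EV against 1144 and 1468 CPM in RelA-WT, a log2 difference of -6.39 ± 0.29 (edgeR quasi-likelihood test, adjusted p = 6.01e-11). Reads of Rela were thus few but not absent in EV, and both EV libraries lay far below both RelA-WT libraries. The other 2 genes named in the genotype were not called, at -0.02 for Rel and -0.10 for Trp53, with signs that changed when single libraries were left out. Rel, which encodes c-Rel, had 18.5 and 26.9 CPM in EV and 18.8 and 27.1 CPM in RelA-WT, and Trp53, which encodes p53, had 31 and 38.3 CPM in EV and 32.8 and 41.1 CPM in RelA-WT. Counts per whole gene do not show whether such reads come from the exons that the knockout alleles lack, so they do not check these alleles.

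Resting cells without RelA differed from those with it mostly in one direction. Of 13665 genes tested, 155 (1.13%) were called, of which 147 (1.08%) were lower in EV and 8 (0.0585%) higher at an adjusted p under 0.05 (edgeR quasi-likelihood test with the set as a block, Benjamini-Hochberg over all genes), and 1067 passed an unadjusted p under 0.05. The lower genes include Rela, whose call was fixed by the design. They had a median log2 difference of -1.09, against -0.01 over all genes tested. Of the 147, 83 were lower by more than 1 log2 unit and 25 by more than 2. In 146 the sign was the same in both sets, the exception being the small RNA gene Gm23935, and in 140 both EV libraries were below both RelA-WT libraries, an order that 13.9% of all genes tested showed. Without the set block the counts were 77 lower, 76 of them among the 147, and 0 higher. With 1 of the 4 libraries left out the count of lower genes was 40 without the EV library of set 1, 104 without that of set 2, 77 without the RelA-WT library of set 1 and 65 without that of set 2. Calls held under all 11 alternatives run for 15 of the 147, among them Rela, C3, Cxcl10, Spint2 and Ntn1.

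**Figure D1:**
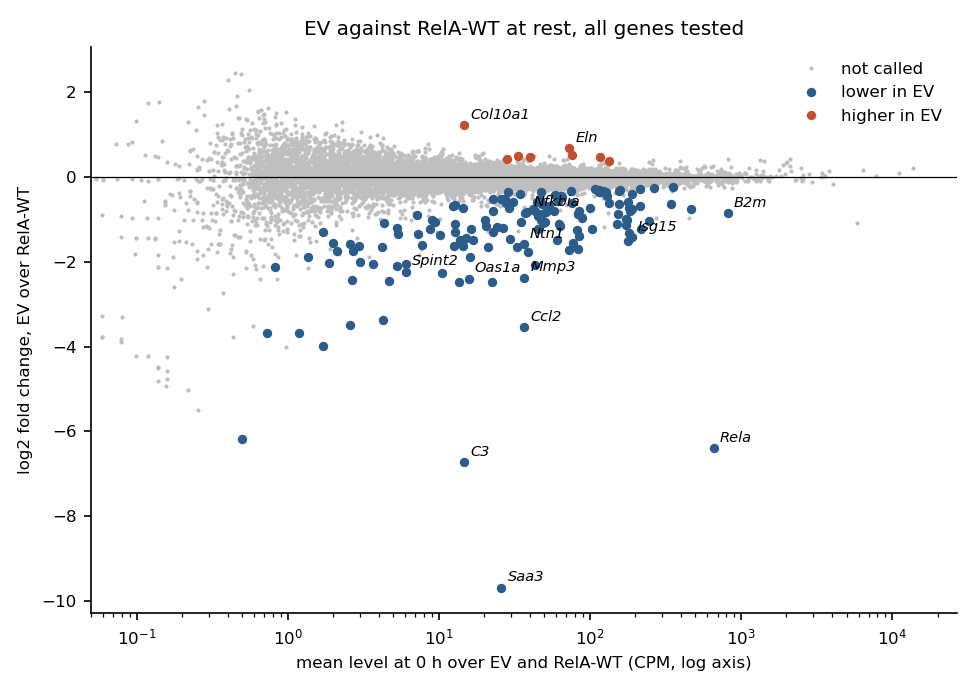
Log2 fold change of EV over RelA-WT at rest (vertical axis) against the mean level over both groups in CPM (horizontal log axis) for the genes tested; blue points are the 147 called lower in EV, red points the 8 called higher, and grey points are not called. Saa3, C3 and Rela lie lowest, and the called genes run from low to high levels.

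The 2 lowest fold changes were those of Saa3 and C3, and 4 genes of the acute phase and complement list were lower. Saa3, an acute phase serum amyloid apolipoprotein (chr7:46711998-46715676, minus strand), was nearly silent in EV, with 1 read in the 2 libraries together against 891 in RelA-WT, which is 0 and 0.0792 CPM in EV against 66.8 and 36.9 CPM in RelA-WT. The ratio of RelA-WT to EV was 934, with a 95% interval of 167 to 36930 that covers counting error only. C3, the central complement component (chr17:57203970-57228136, minus strand), had 0.544 and 0.0792 CPM in EV against 35.3 and 23 CPM in RelA-WT, a log2 difference of -6.73 ± 0.49 (adjusted p = 1.65e-08). Haptoglobin, encoded by Hp, binds free hemoglobin and had 0.272 and 0.158 CPM in EV against 2.86 and 3.6 CPM in RelA-WT (-3.98 ± 0.62, adjusted p = 0.000176). Serpina3g, a serine protease inhibitor of a family with near-identical copies, differed less, with 29.1 and 24.1 CPM in EV against 52.7 and 43.9 CPM in RelA-WT (-0.86 ± 0.11, adjusted p = 6.36e-06). For all 4 genes the groups did not overlap. They were the 4 lower (21.05%, beside 1.08% of all genes tested) of 19 measured members of the complement and acute phase list. The list median was -0.46, and no member was higher.

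Among genes outside that list, named here after their values were seen, Lbp, which encodes the lipopolysaccharide-binding protein, had 0.68 and 0.792 CPM in EV against 6.21 and 2.97 CPM in RelA-WT (-2.44 ± 0.51, adjusted p = 0.00704). Cp, which encodes the copper protein ceruloplasmin, had 11.6 and 7.45 CPM in EV against 46.9 and 18.2 CPM in RelA-WT (-1.67 ± 0.19, adjusted p = 4.9e-06). Both are liver acute phase products as well. For Lbp the call was lost without the EV library of set 1 (-2.30, adjusted p = 0.148), without that of set 2 (-2.67, adjusted p = 0.123) and without the RelA-WT library of set 1 (-1.99, adjusted p = 0.130). For Hp it was lost without the EV library of set 2 (-3.15, adjusted p = 0.100), and for Cp without the set block (-1.77, adjusted p = 0.542). Saa3 lost its call in a fit of the 0 h libraries alone (-9.64, adjusted p = 0.172).

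**Figure D2:**
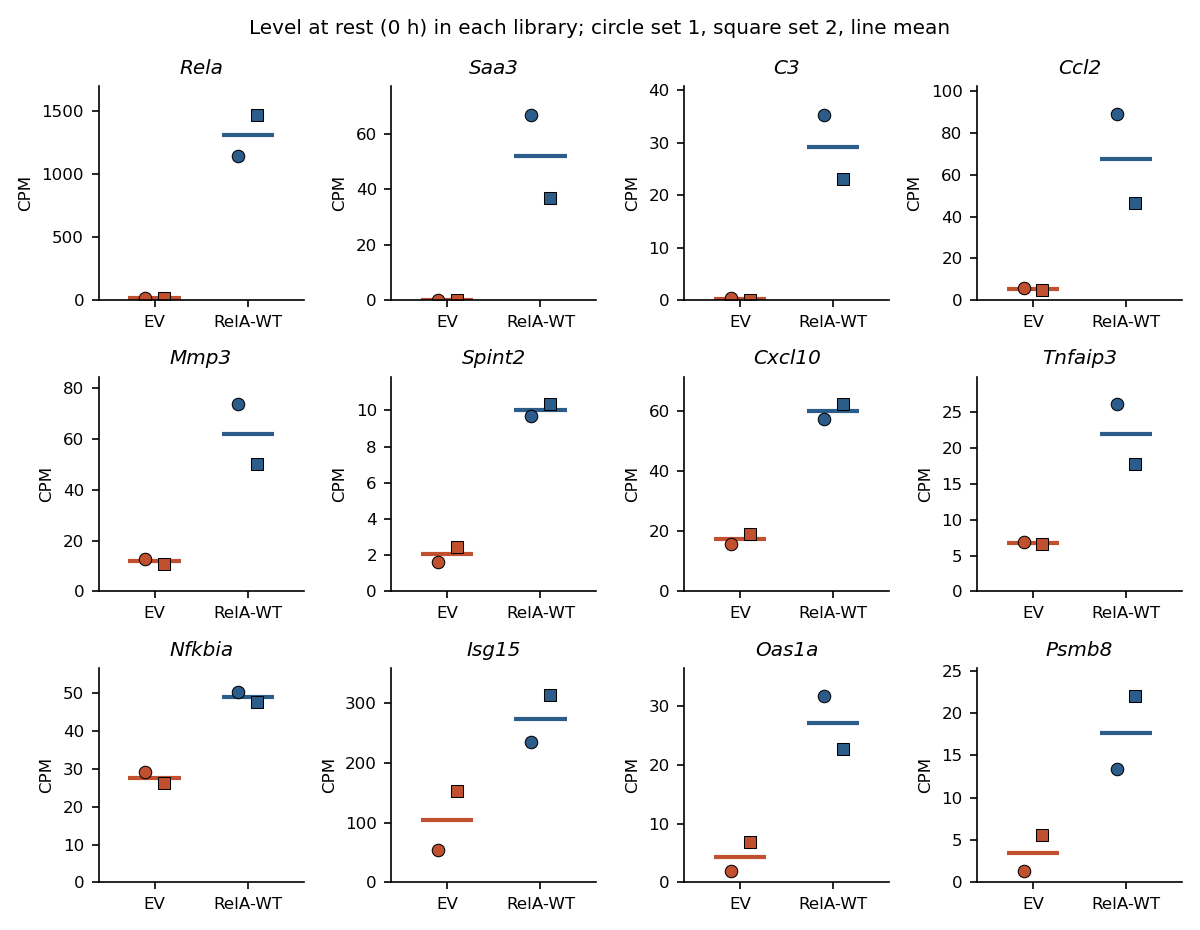
Level at rest in CPM (vertical axes from 0) of 12 genes in each EV library (red, left) and each RelA-WT library (blue, right); circles are set 1, squares are set 2 and lines are means of the 2 libraries. In all 12 panels both EV points lie below both RelA-WT points, and for Isg15, Oas1a and Psmb8 the EV library of set 2 lies above that of set 1.

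Chemokine genes had a median log2 difference of -1.10 over 21 measured members. Of these members 4 were lower (19.05%, beside 1.08% of all genes tested) and 0 higher. Of the 21, 5 had at most 3 reads in each group, and without these 5 the median was -0.95. Ccl2, the main monocyte attractant (chr11:82035571-82037453, plus strand), had 5.71 and 5.15 CPM in EV against 88.8 and 46.3 CPM in RelA-WT (-3.54 ± 0.35, adjusted p = 6.36e-06). Its chromosomal neighbour Ccl7, which attracts monocytes too, had 5.44 and 3.01 CPM in EV against 27.4 and 18.4 CPM in RelA-WT (-2.47 ± 0.40, adjusted p = 0.00176). Cxcl10, a T cell attractant that interferon also induces, had 15.9 and 19.2 CPM in EV against 57.6 and 62.6 CPM in RelA-WT (-1.77 ± 0.20, adjusted p = 4.67e-05). Ccl5, another T cell attractant, had 11.2 and 8.4 CPM in EV against 24.8 and 20.7 CPM in RelA-WT (-1.23 ± 0.25, adjusted p = 0.00972). For each of the 4, both EV libraries were below both RelA-WT libraries. Cxcl16, a membrane-bound chemokine, had 3.13 and 4.12 CPM in EV and 7.8 and 7.12 CPM in RelA-WT and missed the threshold (adjusted p = 0.063), as did Cxcl15, which had 10.6 and 9.27 CPM in EV and 6.52 and 5.95 CPM in RelA-WT (adjusted p = 0.0663). Of these calls, Cxcl10 held with any 1 library left out, Ccl2 did so too but was lost in a fit of the 0 h libraries alone (-3.52, adjusted p = 0.110), Ccl7 was lost without the EV library of set 2 (-2.15, adjusted p = 0.0643), and Ccl5 was lost with each of the 4 left out (adjusted p of 0.0793 to 0.254).

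Of the genes that restrain NF-kB, Nfkbia, Tnfaip3 and Tnip3 were lower, and most others of their lists were not called. Nfkbia encodes IkB-alpha, the inhibitor that TNF signalling degrades (chr12:55489411-55492647, minus strand), and had 29.1 and 26.2 CPM in EV against 50.3 and 47.6 CPM in RelA-WT (-0.83 ± 0.17, adjusted p = 0.0126). Tnfaip3 encodes the ubiquitin-editing enzyme A20, which shuts NF-kB signalling off (chr10:19000910-19015657, minus strand), and had 6.94 and 6.65 CPM in EV against 26.3 and 17.8 CPM in RelA-WT (-1.63 ± 0.32, adjusted p = 0.00933). Tnip3, whose product binds A20, had 0 reads in EV against 16 in RelA-WT. With EV taken at 3 reads in its 2 libraries together, it was 5.59-fold lower in EV. This bound takes the 16 reads of RelA-WT as exact. For these 3 genes both EV libraries were below both RelA-WT libraries. With any 1 of the 4 libraries left out, Nfkbia lost its call (-0.89 to -0.75, adjusted p of 0.112 to 0.239), and so did Tnfaip3 (-1.80 to -1.52, adjusted p of 0.0637 to 0.175). Tnip3 lost it without either EV library (adjusted p of 0.107 and 0.140) and without the RelA-WT library of set 1 (0.0809).

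Of the 11 NF-kB subunits and IkB inhibitors measured, Rela and Nfkbia were lower, 0 were higher and 9 were not called. The call of Rela was fixed by the design, since the vector supplied it to RelA-WT. The precursors of p50 and p52, the subunits without a transactivation domain, had 79 and 73.7 CPM in EV and 95.5 and 88.3 CPM in RelA-WT for Nfkb1, and 72.7 and 60.5 CPM in EV and 77 and 77 CPM in RelA-WT for Nfkb2. Relb, a transactivating subunit that the genotype does not name, had 17.4 and 20.4 CPM in EV and 22.6 and 29.7 CPM in RelA-WT (adjusted p = 0.517). Nfkbie, which encodes IkB-epsilon, had 3.4 and 4.99 CPM in EV and 8.91 and 8.92 CPM in RelA-WT (log2 -1.02 ± 0.38, adjusted p = 0.382), and Bcl3, a nuclear IkB relative, had 4.35 and 4.36 CPM in EV and 6.84 and 8.06 CPM in RelA-WT (adjusted p = 0.2). In both of these genes the EV libraries were below the RelA-WT libraries, an order that 13.9% of all genes tested showed. The differences did not pass the test. Among 27 genes of NF-kB signalling and feedback, Tnip3 and Tnfaip3 were the 2 lower ones (7.41%, beside 1.08% of all genes tested). None was higher, and the list median was -0.06.

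Promoters of 3 of these targets are shown to let the κB letters be seen beside the values above. Each line holds the 250 bases before a RefSeq start (GRCm38.p6), in gene orientation, for Nfkbia (chr12:55492648-55492897, minus strand), Tnfaip3 (chr10:19015411-19015660, minus strand) and Cxcl10 (chr5:92348890-92349139, minus strand). Tnfaip3 has a further RefSeq start, whose window (chr10:19011964-19012213, minus strand) held no κB or ISRE match. Only windows with a match were chosen to be shown. Capitals mark matches to the κB consensus on either strand and, in Cxcl10 alone, 1 match to the ISRE core (GAAA, any 2 bases, GAAA), which is the first capital run. Palindromic κB letters match on both strands, and matches that overlap run together.
Nfkbia: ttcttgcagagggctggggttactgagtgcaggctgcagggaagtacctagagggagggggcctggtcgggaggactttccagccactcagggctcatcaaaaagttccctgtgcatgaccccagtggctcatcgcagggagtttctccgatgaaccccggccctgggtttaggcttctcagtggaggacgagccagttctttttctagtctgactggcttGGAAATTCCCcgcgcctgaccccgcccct
Tnfaip3: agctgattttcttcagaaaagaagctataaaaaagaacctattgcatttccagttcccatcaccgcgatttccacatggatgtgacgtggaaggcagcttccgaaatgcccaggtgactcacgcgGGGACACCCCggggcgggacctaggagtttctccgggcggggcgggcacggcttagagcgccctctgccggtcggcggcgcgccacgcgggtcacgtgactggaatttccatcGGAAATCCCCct
Cxcl10: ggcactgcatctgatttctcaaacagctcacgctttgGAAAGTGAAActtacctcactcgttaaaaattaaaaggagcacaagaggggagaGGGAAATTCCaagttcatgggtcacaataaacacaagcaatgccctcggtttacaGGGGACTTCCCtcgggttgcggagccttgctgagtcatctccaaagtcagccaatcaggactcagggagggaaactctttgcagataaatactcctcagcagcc
In windows of 250 bases before to 50 after the start, the κB consensus was found in 10 of the 17 NF-kB targets called lower that have a window (58.8%), in 28 of 111 of all genes called lower (25.2%) and in 12.7% of the 10435 tested genes with a window. It was found in 0 of the 5 higher genes with one. The share among uncalled NF-kB targets was not counted, so the share in the lower targets cannot be set against that of their list. C3 and Saa3 held no κB match in this window, which says only that these letters are not in it.

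Matrix proteases and further NF-kB targets followed. Mmp13, a collagenase, had 1.63 and 0.0792 CPM in EV against 10.2 and 5.09 CPM in RelA-WT (-3.38 ± 0.58, adjusted p = 0.00182), and its neighbour Mmp3, which encodes stromelysin, had 12.7 and 10.9 CPM in EV against 73.7 and 50.2 CPM in RelA-WT (-2.38 ± 0.41, adjusted p = 0.00279). They were the 2 lower of 25 proteases and inhibitors measured (8.0%, beside 1.08% of all genes tested). Vcam1, an adhesion molecule for leukocytes, had 128 and 105 CPM in EV against 259 and 204 CPM in RelA-WT (-0.99 ± 0.17, adjusted p = 0.00212), whereas Icam1, of the same function, had 2.04 and 4.2 CPM in EV and 11 and 12.5 CPM in RelA-WT and was not called (-1.83 ± 0.61, adjusted p = 0.278). In these 4 genes both EV libraries were below both RelA-WT libraries, an order that 13.9% of all genes tested showed. Of 69 canonical NF-kB targets measured, 21 (30.4%) were lower and 0 higher, with a median of -0.75. Leaving out 1 library gave 8 to 15 lower. The uncalled targets included Csf1, the macrophage growth factor, with 148 and 132 CPM in EV and 207 and 173 CPM in RelA-WT (adjusted p = 0.335), and Sod2, the mitochondrial superoxide dismutase, with 37.7 and 48 CPM in EV and 46.5 and 54.3 CPM in RelA-WT. Mmp13 lost its call without the EV library of set 2 (-2.38, adjusted p = 0.0514), Mmp3 without either EV library (adjusted p of 0.0537 and 0.0825), and Vcam1 without the EV library of set 2 or the RelA-WT library of set 1 (0.0584 and 0.0556).

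Several lower genes were of other classes. Spint2, a Kunitz-type inhibitor of serine proteases at the cell surface, had 1.63 and 2.46 CPM in EV against 9.71 and 10.3 CPM in RelA-WT (-2.24 ± 0.26, adjusted p = 8.69e-07). Ntn1, the axon guidance protein netrin-1, was named after its values were seen and had 17 and 19.2 CPM in EV against 53.6 and 55.7 CPM in RelA-WT (-1.58 ± 0.14, adjusted p = 2.7e-09). The replicates of Ntn1 were close in both groups. Sod3, the extracellular superoxide dismutase, had 7.48 and 8.4 CPM in EV against 19.7 and 16 CPM in RelA-WT (-1.12 ± 0.17, adjusted p = 0.000131). Fgf7, the keratinocyte growth factor, had 44.1 and 38 CPM in EV against 73.8 and 59.2 CPM in RelA-WT (-0.69 ± 0.11, adjusted p = 0.000198). Mlkl, the executioner of necroptosis, had 15.9 and 17.1 CPM in EV against 30.4 and 28.3 CPM in RelA-WT (-0.81 ± 0.12, adjusted p = 0.000131). These 5 genes kept their call under every alternative run. Each of Sod3, Fgf7 and Mlkl was the 1 lower member of its list, of 23 antioxidant, 24 cytokine and growth factor and 24 survival genes measured. That is 4.35%, 4.17% and 4.17% of them, beside 1.08% of all genes tested. Single calls do not describe these lists.

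Among 26 receptors, 2 were lower (7.69%, beside 1.08% of all genes tested). Il1rl1, the receptor of interleukin-33, had 83.3 and 151 CPM in EV against 212 and 259 CPM in RelA-WT (-1.02 ± 0.22, adjusted p = 0.0167), and Tlr3, the endosomal receptor of double-stranded RNA, had 10.9 and 15.8 CPM in EV against 23.5 and 31 CPM in RelA-WT (-1.02 ± 0.19, adjusted p = 0.00355). Spp1, which encodes osteopontin and is among the most abundant lower genes, had 273 and 422 CPM in EV against 498 and 675 CPM in RelA-WT (-0.77 ± 0.17, adjusted p = 0.0177). In these 3 genes the groups did not overlap. Without the set block none of the 3 passed the test (adjusted p of 0.244 for Il1rl1, 0.229 for Tlr3 and 1 for Spp1). Spp1 also lost its call with each of the 4 libraries left out (0.0641 to 0.236), Il1rl1 with any but the EV library of set 2 left out (0.107 to 0.365), and Tlr3 without the EV library of set 1 or the RelA-WT library of set 2 (0.123 and 0.134). Hif1a (-0.24) and Pfkl (-0.36), the hypoxia factor and a glycolytic enzyme, were called on small differences, and the 2 Pfkl groups overlapped, with 76.5 and 125 CPM in EV and 85.4 and 177 CPM in RelA-WT. Pfkl lost its call under 9 and Hif1a under 6 of the 11 alternatives.

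**Figure D3:**
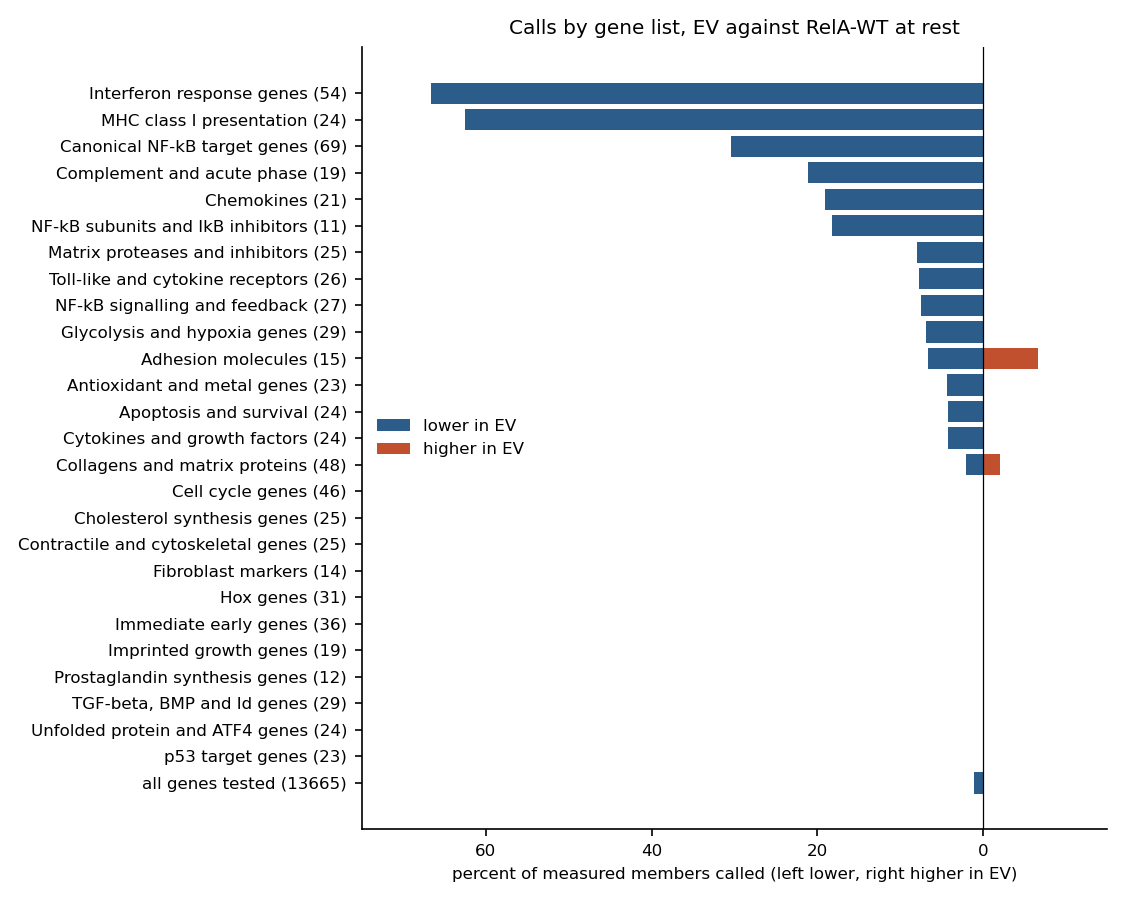
Percentage of the measured members of each gene list (number in brackets) called lower (blue, to the left) or higher (red, to the right) in EV against RelA-WT at rest; lists with at most 4 measured members are left out, and the lowest bar is all genes tested. Interferon response genes (66.7% lower) and MHC class I genes (62.5%) stand above the NF-kB targets (30.4%), and 11 lists have no bar.

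Interferon-stimulated genes made up the largest called group among the lists read. Of 54 interferon response genes measured, 36 (66.7%) were lower in EV, 0 were higher and 18 were not called, with a median log2 difference of -1.08. Together with the MHC class I list they made up 51 of the 147 lower genes. Oas1a, a 2'-5' oligoadenylate synthase that senses double-stranded RNA, had 1.9 and 6.81 CPM in EV against 31.7 and 22.6 CPM in RelA-WT (-2.40 ± 0.33, adjusted p = 0.000378). Gbp2, a guanylate-binding GTPase against intracellular pathogens, had 36.5 and 39 CPM in EV against 139 and 93.2 CPM in RelA-WT (-1.56 ± 0.22, adjusted p = 0.000539). Zbp1, a sensor of left-handed nucleic acids, had 1.9 and 2.53 CPM in EV against 11.5 and 8.53 CPM in RelA-WT (-2.06 ± 0.44, adjusted p = 0.0159). Trim30a, which is outside the list and belongs to a family of antiviral TRIM proteins, had 9.8 and 22.2 CPM in EV against 64.9 and 75.9 CPM in RelA-WT (-2.08 ± 0.25, adjusted p = 0.000104). In each of these 4 genes the EV libraries were below the RelA-WT libraries, and in Oas1a and Trim30a the EV library of set 2 was nearer to its RelA-WT partner than that of set 1. Gbp2 and Trim30a kept their call under every alternative run, and Gbp2 was the only one of the 36 list genes to do so. Oas1a lost its call in a fit of the 0 h libraries alone (adjusted p = 0.190). Zbp1 lost its call with each library left out (-2.39 to -1.83). In the fit of the 0 h libraries alone 25 interferon genes were lower, while the lower genes in all were 218. Without the set block these counts were 28 and 77.

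Further interferon genes were named after their values were seen. Isg15, a ubiquitin-like protein (chr4:156199424-156200818, minus strand), had 53.9 and 154 CPM in EV against 235 and 314 CPM in RelA-WT (-1.42 ± 0.30, adjusted p = 0.015). Bst2, the tetherin that holds budding virus at the membrane, had 71.4 and 136 CPM in EV against 263 and 256 CPM in RelA-WT (-1.32 ± 0.24, adjusted p = 0.00514). Iigp1, an immunity-related GTPase, had 22.4 and 55.4 CPM in EV against 125 and 133 CPM in RelA-WT (-1.70 ± 0.31, adjusted p = 0.00447). Transcription factors of this programme were among the lower genes: Irf7 had 16.3 and 37 CPM in EV against 55.5 and 72.1 CPM in RelA-WT (-1.24 ± 0.25, adjusted p = 0.00995) and Stat2 had 95.2 and 176 CPM in EV against 193 and 258 CPM in RelA-WT (-0.74 ± 0.17, adjusted p = 0.0304). Irf9, the partner of Stat2, had 80.8 and 123 CPM in EV and 134 and 140.1 CPM in RelA-WT and was not called (adjusted p = 0.0961), nor was Irf1, with 37 and 43.6 CPM in EV and 53.6 and 55.5 CPM in RelA-WT (adjusted p = 0.42). In all of these genes the EV libraries were below the RelA-WT libraries, an order that 13.9% of all genes tested showed. Isg15, Bst2, Iigp1, Irf7 and Stat2 each lost the call without the EV library of set 1, at log2 differences between -1.34 and -0.51, and also without the RelA-WT library of set 1 (adjusted p of 0.0512 to 0.153). Isg15, Irf7 and Stat2 lost it without the RelA-WT library of set 2 too (0.134, 0.0926 and 0.304), and Isg15, Bst2 and Iigp1 in a fit of the 0 h libraries alone (0.312, 0.276 and 0.207). Without the set block Isg15, Irf7 and Stat2 lost it (adjusted p of 0.170, 0.442 and 1).

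The interferons themselves were scarcely read. Over 21 interferon genes in the deposited tables the EV libraries held 1 and 1 reads and the RelA-WT libraries 2 and 1, and Ifnb1, the interferon-beta gene of fibroblasts, had 1 read in each library of set 1 and 0 in each library of set 2. A difference between the groups in interferon transcripts was not detectable at this depth. The receptor genes were well read and not called, with Ifnar1 at 149 and 130.1 CPM in EV and 147 and 132 CPM in RelA-WT (log2 -0.00 ± 0.06), Ifnar2 at 39.3 and 36.4 CPM in EV and 37.4 and 39.2 CPM in RelA-WT (-0.03 ± 0.10), and Ifngr1 at 46.8 and 43.2 CPM in EV and 48.4 and 44.7 CPM in RelA-WT (-0.05 ± 0.09).

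Promoters of 2 interferon genes and of B2m are shown for the ISRE core, which was chosen as a motif after the values were seen. The lines again hold the 250 bases before the RefSeq start (GRCm38.p6), for Isg15 (chr4:156200819-156201068, minus strand), Oas1a (chr5:120907526-120907775, minus strand) and B2m (chr2:122147437-122147686, plus strand). Capitals mark the ISRE core in Isg15 and Oas1a, where overlapping matches run together, and in B2m first an ISRE core and then a κB match.
Isg15: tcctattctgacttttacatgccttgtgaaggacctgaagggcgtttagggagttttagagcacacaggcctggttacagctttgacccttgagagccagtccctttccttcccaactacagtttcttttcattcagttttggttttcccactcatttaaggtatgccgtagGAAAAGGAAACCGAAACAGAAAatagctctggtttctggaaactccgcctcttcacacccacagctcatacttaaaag
Oas1a: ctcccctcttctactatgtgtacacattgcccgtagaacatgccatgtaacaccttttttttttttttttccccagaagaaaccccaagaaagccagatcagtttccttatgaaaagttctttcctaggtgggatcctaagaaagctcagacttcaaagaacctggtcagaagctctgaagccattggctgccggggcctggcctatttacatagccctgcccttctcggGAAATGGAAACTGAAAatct
B2m: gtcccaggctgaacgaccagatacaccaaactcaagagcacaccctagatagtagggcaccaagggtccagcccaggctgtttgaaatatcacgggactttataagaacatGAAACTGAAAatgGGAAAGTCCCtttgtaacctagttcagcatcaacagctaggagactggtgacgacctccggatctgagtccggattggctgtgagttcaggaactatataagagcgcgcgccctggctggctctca
In the windows of 250 bases before to 50 after the start, the ISRE core on either strand was found in 16 of the 26 lower interferon genes with a window (61.5%), in 44 of 111 of all lower genes (39.6%), in 0 of 5 higher genes and in 3.78% of the 10435 tested genes with a window. The κB consensus was found in 5 of the 26 lower interferon genes (19.2%). Neither motif was counted in the uncalled interferon genes.

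Genes of antigen presentation by MHC class I were lower at several steps of the path. Of 24 genes measured, 15 (62.5%) were lower, 0 higher and 9 not called, with a median of -0.89. B2m, the light chain of every class I molecule (chr2:122147686-122153083, plus strand), was the most abundant of the 147 lower genes after Rela in RelA-WT, with 467.2 and 705 CPM in EV against 972 and 1121 CPM in RelA-WT (-0.86 ± 0.14, adjusted p = 0.00212). Among heavy chains, H2-Q4 had 2.31 and 10.9 CPM in EV against 27 and 49.3 CPM in RelA-WT (-2.48 ± 0.39, adjusted p = 0.0017). H2-K1 (-1.22) and H2-D1 (-1.11) were lower too, and reads of these near-identical genes can be split uncertainly between them. Psmb8, a subunit of the immunoproteasome that cuts the peptides, had 1.36 and 5.54 CPM in EV against 13.4 and 22 CPM in RelA-WT (-2.26 ± 0.38, adjusted p = 0.00218). Tap1, which pumps peptides into the endoplasmic reticulum, had 10.5 and 20.8 CPM in EV against 39.5 and 48.2 CPM in RelA-WT (-1.46 ± 0.26, adjusted p = 0.00318), and Tapbp, which encodes the loading factor tapasin, had 264 and 274 CPM in EV against 462 and 374 CPM in RelA-WT (-0.63 ± 0.12, adjusted p = 0.00367). Erap1, the peptidase that trims peptides there, differed by -0.56 ± 0.10 (adjusted p = 0.0017), and Nlrc5, the transactivator of the class I genes, by -1.31 ± 0.30 (adjusted p = 0.0288). In all of these genes both EV libraries were below both RelA-WT libraries. Without the set block 2 of the 24 were lower, and with 1 library left out 2 to 8, the fewest without the EV library of set 1. Of the 15, 1 kept its call with each library left out in turn.

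The size of the interferon difference was not the same in the 2 sets. All 36 lower interferon genes had the larger gap in set 1, with a median of -1.62 there against -0.95 in set 2, as had 14 of the 15 lower MHC class I genes, at -1.28 and -0.89. In 35 of the 36 the EV library of set 2 had more CPM than that of set 1, while the RelA-WT library of set 2 had more than that of set 1 in 20. The 15 lower NF-kB targets outside both of these lists split otherwise: 7 had the larger gap in set 1, the medians were -1.89 in set 1 and -1.70 in set 2, and EV was higher in set 2 in 3. Without the EV library of set 1, 4 interferon genes were called lower, and without that of set 2, 33 were, against 16 and 13 without the RelA-WT library of set 1 and of set 2. The sets also differed in depth and in the share of Gm42418, whose part in this was not tested. At 0.5 h of TNF the order of the EV libraries was mixed among interferon genes and was not counted. Oas1a then had 3.55 CPM in EV of set 1 and 3.14 CPM in EV of set 2, and Parp9 59.1 and 53.2 CPM. Oasl1 had 1.61 and 5.33 CPM, and Adar 91.5 and 94.2 CPM. The 36 genes were read in the same libraries, so they are not independent cases.

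Some lower genes were neighbours on the chromosome. Of the 147, 60 lay within 200 kb of another one, a number that was not compared with that of other genes. The stretches below begin and end at called genes, which raises the shares within them. On chromosome 1, 6 of the 7 tested genes of a stretch of the Ifi200 family (mm10 chr1:173723430-173982744) were lower, among them Ifi204 (-1.07) and Ifi203 (-1.29), which encode DNA sensors and their relatives. In the MHC region (chr17:33915899-34216321), 6 of 22 were lower, the neighbours Psmb8, Psmb9, Tap1 and Tap2 with H2-K1 and Tapbp. All 3 tested genes of a stretch on chromosome 3 were lower, the guanylate-binding genes Gbp2, Gbp3 and Gbp7. Of the 5 tested genes of a stretch on chromosome 5, 3 were lower (Oas1a, Oas1g and Oas3). On chromosome 4 Isg15 stood beside Agrn, the gene of the synaptic organiser agrin. Agrn had 77.6 and 191 CPM in EV against 252 and 352 CPM in RelA-WT (-1.23 ± 0.18, adjusted p = 0.000621). Agrn lost its call without the set block (adjusted p = 1) and in a fit of the 0 h libraries alone (0.187). On chromosome 11 Ccl2 and Ccl7, and on chromosome 9 Mmp13 and Mmp3, were neighbours of this kind. Copies within the Ifi200, Gbp, Oas, Slfn and Trim families are alike, so reads could be split between them, and their members are not independent cases.

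The 8 higher genes differed by 0.37 to 1.22 log2 units, and 2 of them were members of any list. Col10a1, the collagen of hypertrophic cartilage (chr10:34389981-34397085, plus strand), had 15.5 and 25.3 CPM in EV against 7.8 and 10.3 CPM in RelA-WT (1.22 ± 0.22, adjusted p = 0.00212). Eln, which encodes elastin, had 63.1 and 117 CPM in EV against 43.9 and 69 CPM in RelA-WT (0.67 ± 0.15, adjusted p = 0.0181). Gpc3, a cell-surface heparan sulfate proteoglycan, had 128 and 142 CPM in EV against 101 and 96.5 CPM in RelA-WT (0.46 ± 0.09, adjusted p = 0.00448). In 5 of the 8, Col10a1 and Gpc3 among them, both EV libraries were above both RelA-WT libraries, an order that 10.5% of all genes tested showed. For Eln, Pamr1 and C1qtnf3 the groups overlapped. Pamr1 (0.50), C1qtnf3 (0.50), Nell2 (0.46), the Wnt cofactor Pygo1 (0.42) and the adhesion molecule Alcam (0.37) were higher as well. Eln was the 1 higher and Spp1 the 1 lower of 48 collagens and matrix proteins, and Col1a1, the most abundant of them, had 14679.9 and 14748 CPM in EV and 13531 and 11960.4 CPM in RelA-WT (0.21 ± 0.07, adjusted p = 0.28). None of the 8 kept its call with each library left out in turn, and 0 were called without the set block.

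Many programmes of a fibroblast gave no call between the groups. These were the lists of 36 immediate early genes, 23 p53 targets, 46 cell cycle genes, 29 TGF-beta, BMP and Id genes, 25 contractile and cytoskeletal genes, 25 cholesterol synthesis genes, 24 genes of the unfolded protein response, 12 prostaglandin genes, 31 Hox genes and 19 imprinted genes, each with 0 called by edgeR. Their medians lay between -0.24 (cholesterol synthesis) and 0.11 (imprinted genes), beside -0.01 over all genes. A call missing at 2 libraries a group does not show that the levels were the same.

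The other constructs at rest were set beside these values. RelA-dTAD against RelA-dTA1 shares no library with the comparison above. It gave 16 calls of 13665 genes (0.117%), 12 lower (0.0878%) and 4 higher, and 8 of the 12 were among the 147 genes lower in EV. C3 had 0.926 and 0.362 CPM in RelA-dTAD against 28.2 and 28.8 CPM in RelA-dTA1 (-5.77 ± 0.40, adjusted p = 7.4e-09), and Saa3 had 0.154 and 0.155 CPM in RelA-dTAD against 22.6 and 45.9 CPM in RelA-dTA1. The others were Hp (-3.44), Lbp (-2.64), Mmp13 (-2.34), Spint2 (-2.13), Cp (-1.16) and Ntn1 (-1.05). In these 8 genes RelA-dTAD was low, as EV was. None of the 36 lower interferon genes and none of the 15 lower MHC class I genes was called lower in RelA-dTAD against RelA-dTA1, and their values ranged from -0.13 to 0.57 and from -0.15 to 0.26. Isg15, for one, had 286 and 373 CPM in RelA-dTAD and 247 and 315 CPM in RelA-dTA1, and B2m had 956 and 1339 CPM in RelA-dTAD and 989 and 1333 CPM in RelA-dTA1. The 15 lower NF-kB targets outside these lists had a median of -0.75 in this contrast, with 3 of them called lower. The count of calls was 4 without the set block.

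**Figure D4:**
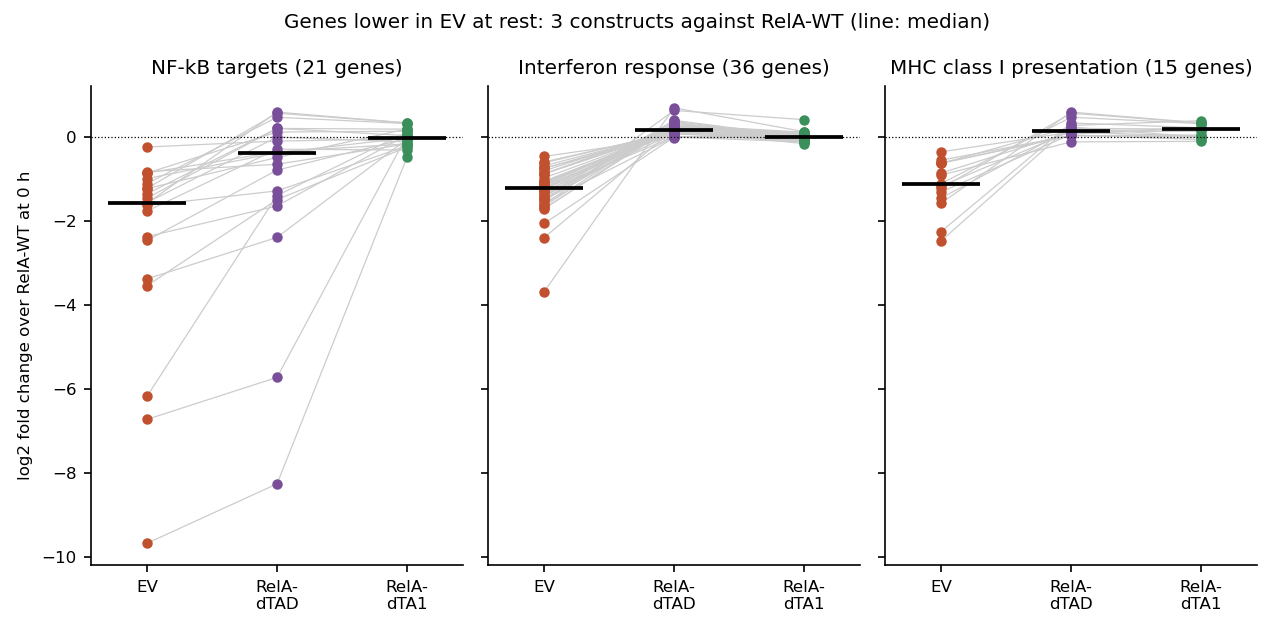
Log2 fold change over RelA-WT at 0 h (vertical axis) of EV, RelA-dTAD and RelA-dTA1 for the genes called lower in EV, in 3 gene lists; each point is a gene, grey lines join the same gene and black bars are medians. The EV values were chosen to be low, and the 3 contrasts share the RelA-WT libraries. RelA-dTAD has a median of 0.16 for the 36 interferon genes and -0.38 for the 21 NF-kB targets.

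Against RelA-WT, whose libraries the EV contrast shares, RelA-dTAD gave 9 calls (0.0659%) and RelA-dTA1 gave 4 (0.0293%). The 7 genes lower in RelA-dTAD (0.0512%) were Saa3, C3, Hp, Spint2, Ccl2, Ntn1 and Cp. Spint2 differed by -2.34 ± 0.24 in RelA-dTAD and by -2.24 ± 0.26 in EV, Ntn1 by -1.40 ± 0.13 in RelA-dTAD and -1.58 ± 0.14 in EV, and Ccl2 by -1.49 ± 0.27 in RelA-dTAD and -3.54 ± 0.35 in EV. The 36 lower interferon genes had medians of 0.16 in RelA-dTAD and 0.00 in RelA-dTA1. The 4 genes called in RelA-dTA1 were Mir6236, Gm23935, Gm15564 and CT010467.1, all of them lower.

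Constructs with 1 library each allow description only. In set 1, Saa3 had 0 CPM in RelA-DB and 0 CPM in RelA-dCterm, C3 had 0.781 CPM in RelA-DB and 1.2 CPM in RelA-dCterm, and Isg15 had 54.9 CPM in RelA-DB and 79.8 CPM in RelA-dCterm. These levels lay far below those of RelA-WT of the same set. Rela itself was read at 649.6 CPM in RelA-DB and 527 CPM in RelA-dCterm, beside 1144 CPM in RelA-WT of set 1. Whether the lower Rela reads bear on these levels was not tested. In set 2, Saa3 had 1.78 CPM in RelA-TA2_CI-dTA1 and 0.876 CPM in RelA-TA2_CI_S467A-dTA1, low beside 45.9 CPM in RelA-dTA1 and 29.9 CPM in RelA-TA2_CI. Isg15 had 230.5 and 253 CPM in the same 2 libraries. As log2(CPM + 1) minus that of RelA-WT of set 2 this was -0.44 and -0.31, beside -1.02 in EV of set 2. Over the 36 lower interferon genes the median of log2(CPM + 1) was 5.03 in EV, 4.96 in RelA-DB, 5.53 in RelA-dCterm, 6.83 in RelA-dTAD, 6.64 in RelA-dTA1 and 6.58 in RelA-WT of set 1. In set 2 it was 5.64 in EV and 6.54 in RelA-WT. The other libraries of set 2 lay between 6.14 (RelA-TA2_CI-dTA1) and 6.70 (RelA-dTAD).

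**Figure D5:**
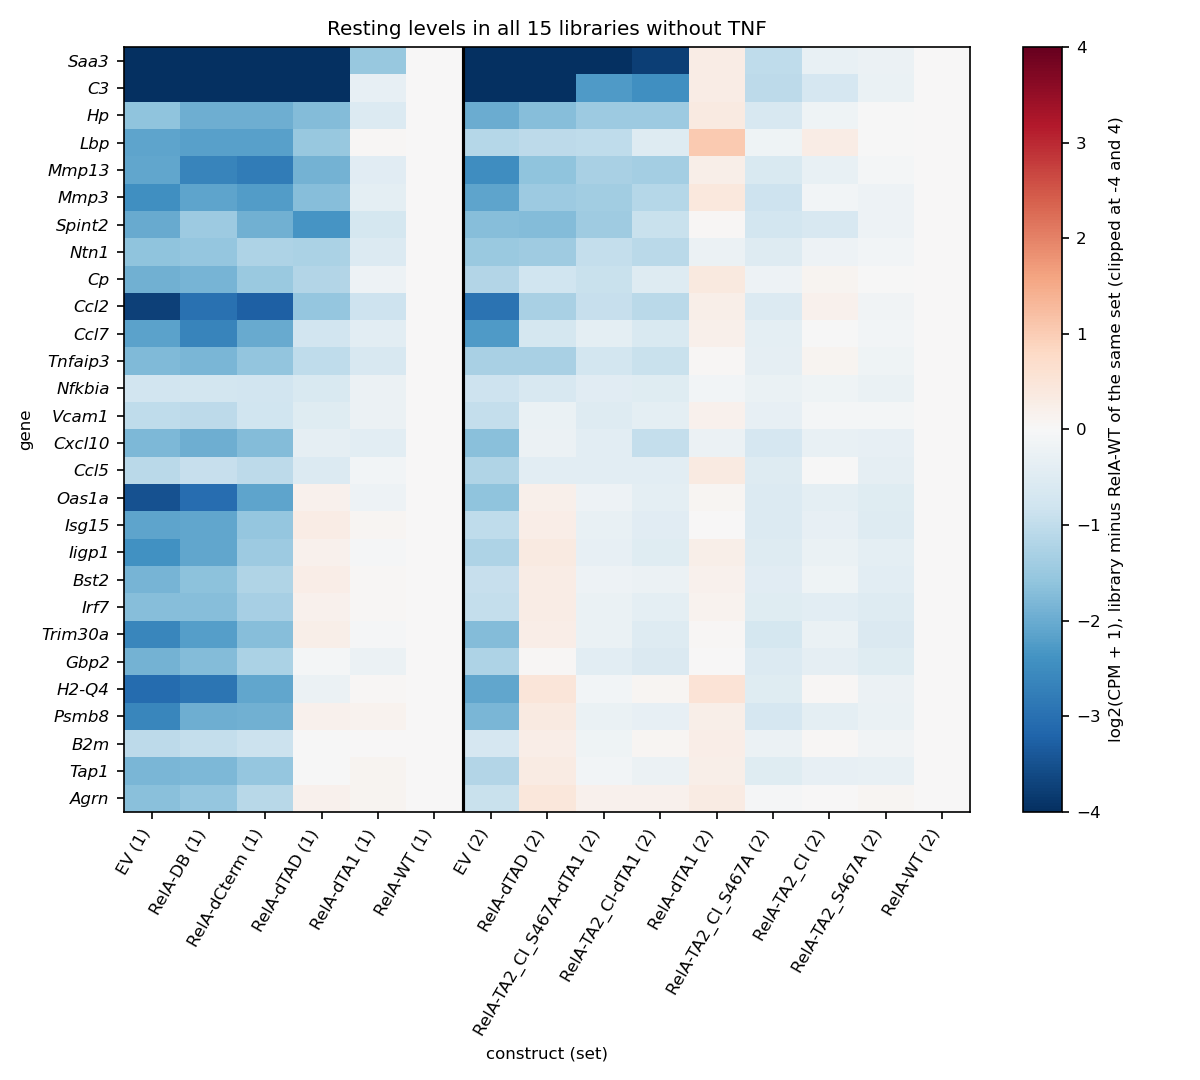
Level of 28 genes (rows) in the 15 libraries at 0 h (columns, set in brackets) as log2(CPM + 1) minus that of RelA-WT of the same set, with blue lower and red higher and the colour clipped at -4 and 4; RelA-WT is 0 by construction. In set 1 RelA-DB and RelA-dCterm are blue in nearly all rows as EV is, while RelA-dTAD is blue in the upper rows, such as Saa3, C3 and Spint2, and pale in interferon and MHC rows, such as Isg15 and B2m.

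The same contrast was read in cells given TNF for 0.5 h. Their libraries are not those compared at 0 h, but they entered the same fit, so the filter, the set block and the dispersion behind both sets of calls are shared. Of the 147 genes lower at rest, 146 had the same sign at 0.5 h and 120 were called lower there, beside 256 of 13665 (1.87%) of all genes tested, or 264 (1.93%) called in either direction. Their median was -1.17. Of the 8 higher genes, 8 had the same sign and 2 were called, Col10a1 (0.88) and Pygo1 (0.49). C3 had 0.646 and 0.0627 CPM in EV against 30.2 and 20.3 CPM in RelA-WT at that time, and Isg15 had 70.5 and 83.5 CPM in EV against 287 and 206 CPM in RelA-WT. The log2 differences were -6.63 for C3 and -1.71 for Isg15, beside -6.73 and -1.42 at rest. Of the 15 lower NF-kB targets outside the interferon and MHC lists, 15 were called at 0.5 h, with a median of -3.81, while the 36 interferon genes had a median of -1.31, with 32 called. Cells given TNF may share their cultures or infections with those at rest, so these libraries repeat the contrast without being shown to be independent of it.

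The EV and RelA-WT lines differ in everything that followed the infection as well as in RelA, and the 2 cannot be told apart here. In bulk RNA, fewer cells that express a gene and less RNA per cell cannot be told apart either.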

How the data were processed

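Polyadenylated RNA of the 75 libraries was counted per gene, and the deposited values are raw read counts. Per the submitters' processing notes the authors used cutadapt 1.9.1, STAR, the mm10 build and featureCounts 1.5.0, and DESeq2 is named there. The kit marks strand, per the labels' protocols, but whether counting used it is not given in the sources used here, so overlapping and antisense genes are uncertain. Each deposited table held 45706 gene entries, 563 of them without a symbol in the gene table used. All sample columns were used, and no 2 were identical.

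The comparison was fitted in edgeR 4.0.16 (R 4.3.3) on the 40 libraries of EV, RelA-dTAD, RelA-WT and RelA-dTA1 at 5 times, with 1 mean per construct and time and the set as a block, so that the dispersion came from all replicated constructs (19 residual degrees of freedom, common dispersion 0.00381). Genes passed filterByExpr (13665), library sizes were TMM-scaled, and quasi-likelihood p-values were adjusted over all genes with a threshold of 0.05. The replicate numbers of the labels follow the sets. Over 190 pairs of groups, libraries with one number deviated together, with correlations between 0.357 and 0.668 (median 0.526), and 0.592 for EV and RelA-WT at 0 h, which is the pairing by set that the block uses.

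Log2 values of single sets carry a prior count of 2. For 1 to 3 reads in a group the ratio is given with its exact 95% interval, and a group with 0 reads was taken at 3 to give a bound. PCR copies are not independent molecules, so intervals cover counting error only. The bounds leave out the counting error of the group that has reads. Depth ran between 4422396 and 6915919 counted reads for set 1 libraries, and between 10440202 and 22908738 for set 2. Members, gene lists, motifs and tests were chosen with earlier results of these data known. Named were Rela, Rel and Trp53, the 15 highest and 15 lowest called genes with the same sign in both sets and at least 5 CPM in a group, up to 6 members per list by adjusted p (all where at most 11 were measured) and the 5 most abundant called genes each way. Other named genes were chosen after their values were seen. Alternatives were DESeq2 1.42.0 with the block, no block, other scaling, filters and libraries, and each 0 h library left out. Promoter sequences are those of RefSeq on GRCm38.p6, and the windows of a gene were counted as 1.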

Additional observations from a re-analysis of the deposited data

Results flagged for a closer look

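Among 203 genes read, those of the naming rule and those added after their values were seen, the EV over RelA-WT difference of 4 was larger after 0.5 h of TNF than at rest by a test of the difference itself, the interaction term of the same edgeR quasi-likelihood fit with Benjamini-Hochberg adjustment over all genes. Genes outside the 203 were not read for this. For Nfkbia the log2 difference changed by -3.80 ± 0.24 (SE, adjusted p = 2.9e-09). At 0.5 h it had 32.3 and 28.3 CPM in EV against 756 and 723 CPM in RelA-WT. For Tnfaip3 the change was -5.09 ± 0.48 (adjusted p = 3.54e-06), with 7.75 and 5.77 CPM in EV against 725 and 675 CPM in RelA-WT at 0.5 h. At rest the EV libraries had 29.1 and 26.2 CPM of Nfkbia and 6.94 and 6.65 CPM of Tnfaip3, so that the higher levels at 0.5 h were those of RelA-WT. Irf1, which was not called at rest, changed by -3.10 ± 0.23 (adjusted p = 1.92e-08), with 42.6 and 41.2 CPM in EV against 513 and 447 CPM in RelA-WT at 0.5 h. Vcam1 changed by -1.43 ± 0.23 (adjusted p = 0.00515), with 119.6 and 103 CPM in EV against 621 and 564 CPM in RelA-WT at 0.5 h. All 4 had EV below RelA-WT in both sets at both times. Groups held 2 libraries each, so no single library could be tested for standing apart.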

How the results depend on the processing

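Counts were 8 higher and 147 lower genes, with 21 NF-kB targets, 36 interferon genes and 15 MHC class I genes among the lower ones. Without the replicate block 0 genes were higher, 77 lower and 2 of the MHC class I genes lower, with 150 calls at 0.5 h in place of 264, 4 in RelA-dTAD against RelA-dTA1 in place of 16, 4 in RelA-dTAD against RelA-WT in place of 9, and 0 in RelA-dTA1 against RelA-WT in place of 4. With no filter on low counts these were 56 higher, 246 lower, 35 NF-kB targets, and 445, 90, 56 and 79 calls in the same 4 comparisons. A stricter filter gave 9 calls in RelA-dTAD against RelA-dTA1 and 0 in RelA-dTA1 against RelA-WT. The 0 h libraries alone gave 64 higher genes, 32 NF-kB targets, and 43, 43 and 48 calls in these 3 contrasts. DESeq2 gave 17 calls in RelA-dTAD against RelA-WT and 0 in RelA-dTA1 against RelA-WT, and in EV 165 lower and 8 higher. With 1 library left out the ranges were 0 to 9 higher, 40 to 104 lower, 8 to 15 NF-kB targets, 4 to 33 interferon genes, 2 to 8 MHC class I genes, 255 to 268 calls at 0.5 h, 13 to 16 in RelA-dTAD against RelA-dTA1, 5 to 9 in RelA-dTAD and 0 to 5 in RelA-dTA1 against RelA-WT. A group then has 1 library that is assumed to vary like the others. The uncalled differences of Rel and Trp53 changed sign: Rel was 0.0083 with upper-quartile scaling and ran from -0.22 to 0.18 with 1 library left out, and Trp53 from -0.21 to 0.034. The median over all genes stayed between -0.022 and 0.019 in all settings. The cause of these shifts was not tested.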
